A study of Lachancea kluyveri with 9 samples.

Results

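The a cells of the budding yeast Lachancea kluyveri were compared with its alpha cells, using 3 libraries of each type, which are 6 of the 9 libraries of the series. Levels of messenger RNA were measured by poly(A) RNA sequencing as read counts over the coding parts of gene models. Of 5189 gene models on 8 chromosomes, 5021 had enough counts to be tested. Strain yLB76 gave the a cells and strain yLB77 the alpha cells, both labelled WT/prototroph. A further type, a/alpha cells (strain FDy22, labelled WT/prototroph), carries both mating types and serves here only as a point of orientation. All 3 types were started from a single colony, grown overnight at 30 °C in YPED medium, set back to 0.1 optical density units in 10 mL and harvested at 0.5 to 1. In the column headers the libraries are named biological replicates, but the labels do not say whether they came from separate cultures, so p-values measure the spread between these libraries, which may be partly technical. Each type was 1 strain, so mating type and strain background cannot be told apart.

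Budding yeasts have a pair of mating types, a and alpha. Each secretes a peptide pheromone that is read by a receptor on cells of the opposite type. The genes for each pheromone and each receptor are transcribed mainly in 1 of the types. Proteins encoded at the mating-type locus set these programmes. In Saccharomyces cerevisiae, alpha1 switches on the alpha-specific genes and alpha2 represses the a-specific ones, while in Candida albicans a2 activates the a-specific genes. Diploid a/alpha cells repress genes that serve mating in both haploid types. The series concerns that repression, and the haploid types set against each other show which genes separate a from alpha cells. No gene names accompany the models in the files, so the labelled types could not be checked against named mating genes, and models are given by position on the chromosomes of the deposited table, without a role.

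Depth was similar in both haploid types. The a libraries held 6379488, 6502834 and 8908799 counts and the alpha libraries 6929356, 7921388 and 8675311, while the a/alpha libraries held 743244, 10776548 and 9164901. Levels are CPM (counts scaled to library size) scaled by TMM factors, which correct for differences in RNA composition, and 3 counts correspond to 0.337 to 0.47 CPM in a haploid library before that scaling. Libraries differed in ways the types do not explain. The median model differed by 0.143 on the log2 scale between a replicates 2 and 3, but by 0.328 and 0.341 between a replicate 1 and these. Between a and alpha libraries of the same replicate number the median difference was 0.34, 0.32 and 0.338 for numbers 1, 2 and 3. For unequal numbers it ran from 0.28, between a replicate 3 and alpha replicate 2, to 0.593, between a replicate 1 and alpha replicate 3. Deviations from the type means correlated across models by 0.76, 0.224 and 0.557 for equal numbers. The correlation was 0.488 between a replicate 2 and alpha replicate 3, and 0.292 between a replicate 3 and alpha replicate 2. Equal numbers were not paired in the first test below, but they were in a second fit and in differences by pair. The labels do not say what equal numbers share.

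**Figure D1:**
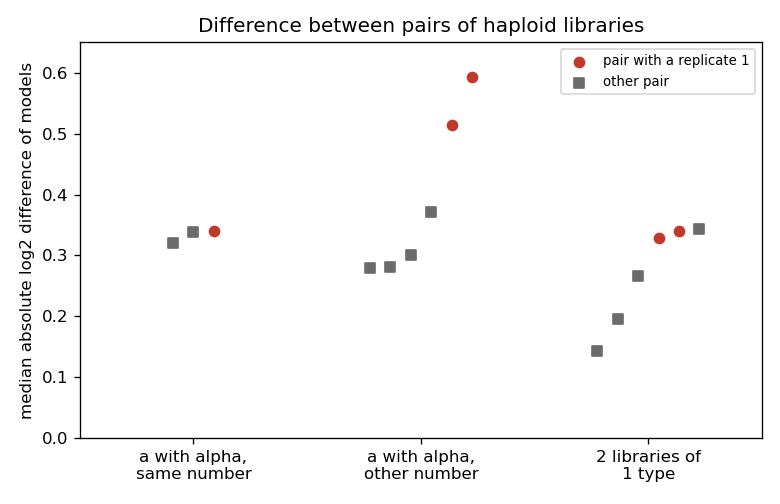
Each point is 1 pair of haploid libraries, and the y axis gives the median over models of the absolute log2 difference in CPM. Same-number a and alpha pairs sit between 0.32 and 0.34, other a and alpha pairs run from 0.28 to 0.593, and the 2 highest of these include a replicate 1. Pairs within 1 type run from 0.143 to 0.344.

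The a cells differed from alpha cells in 622 models (12.4% of those tested; edgeR's quasi-likelihood test, Benjamini-Hochberg adjusted p of at most 0.05). Of these, 271 were higher in a cells (5.4% of models tested) and 351 lower (6.99%). Most differences were small. The median size was 1.96-fold among the higher models and 1.93-fold among the lower ones, and 121 models (2.41%) were at least 2-fold higher in a cells and 147 (2.93%) at least 2-fold lower. At 4-fold these numbers were 22 and 6, and at 16-fold 5 and 3. In all 271 and all 351 models the 3 a libraries lay on 1 side of the 3 alpha libraries, and over all tested models the a libraries lay above the alpha libraries in 18.3% and below them in 16.2%. In bulk RNA, fewer cells that express a gene and less RNA per cell cannot be told apart.

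The number of models past the threshold depended on the libraries and on the fit. With the replicate number as a block the edgeR test called 2228 models (44.4%), 1125 higher and 1103 lower, and all 622 were among them. The 1606 added models had a median size of 0.487 on the log2 scale, and 33 of them were at least 2-fold different. The unblocked test called 251 models with a replicate 2 left out and 395 with a replicate 3 left out, and 241 and 264 with alpha replicates 2 and 3 left out in turn. The share of calls that were higher in a cells was 43.6% with TMM factors and 63.7% with upper-quartile factors, which moved the median of all models by 0.13 on the log2 scale. Of the 121 models at least 2-fold higher, 67 were called in each of the 6 fits that left out 1 library, as were 103 of the 147 at least 2-fold lower.

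**Figure D2:**
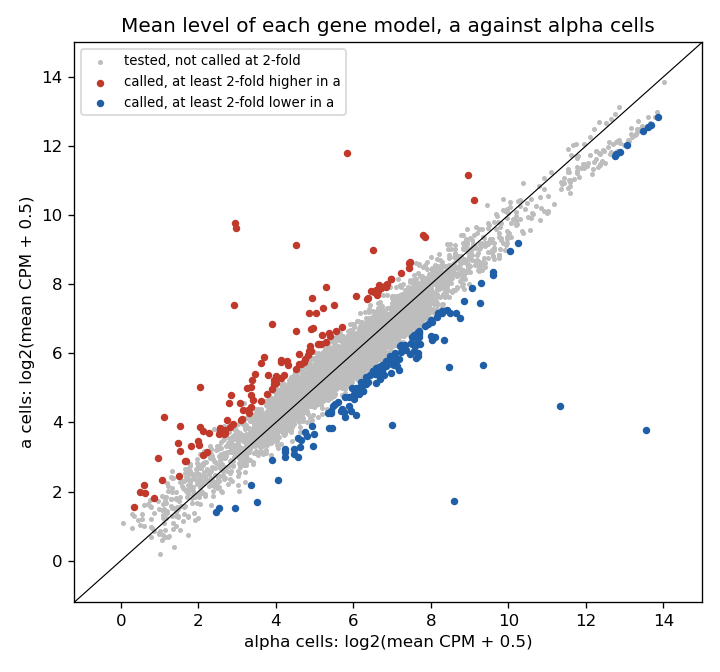
Each point is 1 tested gene model, with its mean level in a cells (y) and in alpha cells (x), both as log2(CPM + 0.5), and the line marks equal levels. The 121 models at least 2-fold higher in a cells and the 147 at least 2-fold lower are coloured, and a few stand far from the line on each side.

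The 121 models at least 2-fold higher in a cells took a small share of the transcriptome. Together they held 2.3%, 2.4% and 2.38% of counts in the a libraries, against 0.488%, 0.472% and 0.442% in the alpha libraries. The 147 lower models held 4.75%, 6% and 5.95% in a libraries and 9.24%, 10.2% and 12% in alpha libraries. These shares are of raw counts, without TMM factors, and describe sets that were chosen by the same comparison. The lower models had a median coding length of 816 bp, while the median was 1347 bp for the higher models and 1272 bp for all tested models.

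The models most raised in a cells opened with a leading group of 5, each over 16-fold, after which the fold change dropped to 10.4-fold. First by fold was a plus-strand model on chromosome B at 153832 to 155205 with a coding length of 1374 bp (augustus_masked-SAKL0B-processed-gene-1.17). It had 797, 782 and 1018 CPM in a cells, 7.24, 6.4 and 7.98 CPM in alpha cells and 0, 1.68 and 1.5 CPM in a/alpha cells. The 0 was in the shallowest library, where a count of 0 allows up to 4.04 CPM, counting error only. All 3 a libraries were far above every alpha library, with a log2 fold change of 6.90 ± 0.23 (SE; 119-fold; edgeR adjusted p = 2.85e-07).

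After it came a model at 2039397 to 2040980 on H, minus strand (augustus_masked-SAKL0H-processed-gene-20.42; coding length 1584 bp). It had 863, 667 and 834 CPM in a cells, 7.54, 6.69 and 7.98 CPM in alpha cells and 4.12, 4.4 and 4.19 CPM in a/alpha cells. The low levels were not at the detection limit, since the alpha libraries held 50, 47 and 56 counts of it. The log2 fold change was 6.72 ± 0.22 (106-fold; edgeR adjusted p = 2.85e-07), and the groups were far apart.

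Next came a short minus-strand model of 294 bp on H at 1844663 to 1844956, which was also the most abundant of the 121 per length. Its levels were 2654, 3582 and 4543 CPM in a cells, 38.5, 60.5 and 71.9 CPM in alpha cells and 1.37, 1.03 and 2.9 CPM in a/alpha cells. Scaled to coding length its mean was 9872 TPM (counts per coding length, scaled to an equal total in each library) in a cells, 105 TPM in alpha cells and 4.27 TPM in a/alpha cells. TPM values do not carry the TMM factors, so their ratios differ from the fold changes given. In the fit of the haploid libraries these factors were 1.094 to 1.171 in a and 0.8056 to 0.9467 in alpha libraries. Alpha cells thus lay well below a cells and well above a/alpha cells in this model, with every library in that order. The a against alpha log2 fold change was 5.97 ± 0.34 (62.8-fold; edgeR adjusted p = 1.43e-05).

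The last members of the leading group had long coding sequences. The plus-strand model at 894334 to 898263 on A (coding length 3930 bp) had 532, 605 and 539 CPM in a cells, against 26.9, 19.6 and 20.5 CPM in alpha cells and 17.8, 20.6 and 21.5 CPM in a/alpha cells. The log2 fold change was 4.64 ± 0.20 (24.9-fold; edgeR adjusted p = 1.86e-06). In alpha cells it stood at the a/alpha level, and no a library came near either. The plus-strand model at 524553 to 528101 on F (coding length 3549 bp) had 133, 202 and 171 CPM in a cells, 4.68, 7.26 and 9.4 CPM in alpha cells and 8.23, 5.99 and 7.73 CPM in a/alpha cells. This was a log2 fold change of 4.56 ± 0.29 (23.5-fold; edgeR adjusted p = 3.23e-05), and here too the alpha and a/alpha libraries overlapped while the a libraries stood above both.

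Ranks 6 to 12 by fold were 5.6 to 10.4 times higher in a cells, with edgeR adjusted p between 5.74e-05 and 0.00605. A minus-strand model on C at 481147 to 481671 (coding length 525 bp) was scarce in both types, with 24.4, 10.7 and 17 CPM in a cells and 1.96, 1.14 and 1.85 CPM in alpha cells. Minus-strand models with equal coding lengths of 1692 bp stood next, on F at 347642 and on E at 771138. The one on F had 37, 33.1 and 26.5 CPM in a cells and 5.28, 3.13 and 2.42 CPM in alpha cells, and the one on E had 146, 108 and 92.8 CPM in a cells and 11.2, 13.8 and 18.1 CPM in alpha cells. No sequence was at hand, so whether reads could be shared between them was not tested. The short model at 959065 on E (228 bp, plus strand) had 143, 196 and 245 CPM in a cells and 21, 34.9 and 34.5 CPM in alpha cells. On D at 629561 the levels were 305, 227 and 186 CPM in a cells, 39.2, 40.1 and 37.3 CPM in alpha cells and 50.8, 139 and 128 CPM in a/alpha cells. There the a/alpha libraries lay between the haploid types, above every alpha library. At 1999166 on H (258 bp, minus strand) the levels were 444, 512 and 580 CPM in a cells and 84.3, 90.2 and 98.6 CPM in alpha cells. The a/alpha libraries lay between the haploid types there too, at 144, 112 and 156 CPM. The same held for the model on C, at 4.12, 2.99 and 2.36 CPM. In the models on F and E the a/alpha and alpha libraries overlapped.

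One of these 12 differed from the others in that a/alpha cells, and not a cells, were the highest type. The model on A at 930346 to 931182 (minus strand) had 20.3, 8.2 and 14.5 CPM in a cells, 3.17, 2.85 and 1.14 CPM in alpha cells and 45.3, 41.1 and 44.1 CPM in a/alpha cells. The a/alpha type was the highest and alpha the lowest, with no overlap between types. It overlaps the model at 930830 to 931132 on the opposite strand, which was also called higher in a cells (16.5, 6.09 and 7.88 CPM in a cells, 2.72, 2.7 and 1.42 CPM in alpha cells), so the counts of both are uncertain.

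Some a-raised models were abundant in alpha cells as well. The model at 201411 to 201764 on B (354 bp, plus strand) had 1893, 2514 and 2526 CPM in a cells, 340, 538 and 617 CPM in alpha cells and only 16.5, 34.3 and 47.8 CPM in a/alpha cells. It was second by level among the 121 models, with 5315 TPM in a cells and 762 TPM in alpha cells, and differed by a log2 fold change of 2.21 ± 0.25 (4.62-fold; edgeR adjusted p = 0.00137). A smaller a to alpha difference held for the model at 681960 to 682298 on G (339 bp, minus strand), with 1009, 1608 and 1511 CPM in a cells, 401, 576 and 685 CPM in alpha cells and 79.6, 82.4 and 114 CPM in a/alpha cells. Both were high in each haploid type and low in a/alpha cells, and graded between the haploid types. The log2 fold change on G was 1.31 ± 0.26 (edgeR adjusted p = 0.0125), and it was 0.0555 when a replicate 2 was left out and 0.0699 when alpha replicate 2 was.

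Tight replicates put 3 further models among the named ones by their p-value. On F at 431111 the levels were 93.8, 104 and 101 CPM in a cells and 22.8, 22.9 and 22.1 CPM in alpha cells (log2 fold change 2.13 ± 0.15; edgeR adjusted p = 4.93e-05). On G at 1150537 they were 147, 150 and 136 CPM in a cells and 26, 35.4 and 36.3 CPM in alpha cells, and on F at 1051101 they were 178, 152 and 147 CPM in a cells and 41.2, 39 and 29.8 CPM in alpha cells. All 3 were a little over 4-fold higher in a cells, and the last pair were lowest of all in a/alpha cells, at 11.1 to 12.4 CPM and at 15 to 23.3 CPM.

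On the alpha side, 3 models stood apart. They were over 100-fold lower in a cells, and the next model was 13.1-fold lower. The extreme was a plus-strand model of 375 bp on A at 472961 to 473335 (augustus_masked-SAKL0A-processed-gene-4.25). It had 14.5, 11.9 and 13.5 CPM in a cells, against 9002, 11893 and 15236 CPM in alpha cells and 23.3, 81.1 and 13.5 CPM in a/alpha cells. Per length it averaged 29.2 TPM in a cells and 17401 TPM in alpha cells. The a libraries held 107, 90 and 132 counts of it, so their level was measured and not at 0. Its log2 fold change was -9.83 ± 0.32 (909-fold; edgeR adjusted p = 2.85e-07).

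A minus-strand model on C at 475936 to 477402 (snap_masked-SAKL0C-processed-gene-4.95; coding length 1467 bp) was close to silent in a cells. It had 4.61, 2.12 and 1.74 CPM in a cells, 497, 345 and 312 CPM in alpha cells and 2.74, 14.1 and 4.4 CPM in a/alpha cells. The alpha libraries were the only high ones, and the log2 fold change was -7.12 ± 0.38 (edgeR adjusted p = 9.96e-06). A plus-strand model of 2058 bp on G at 1048341 to 1050398 completed the trio, with 26.7, 18.9 and 20.2 CPM in a cells, 3134, 2487 and 2185 CPM in alpha cells and 26.1, 51 and 21.4 CPM in a/alpha cells. For it the a and a/alpha libraries overlapped, and the log2 fold change between a and alpha was -6.90 ± 0.27 (edgeR adjusted p = 8.36e-07).

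Ranks 4 to 6 were lower in a cells by 7.3 to 13.1-fold, and beyond them no model reached 4-fold. The models at 388024 to 389459 (plus strand) and 389294 to 389977 (minus strand) on E converge and overlap by their ends. The plus-strand one had 32.9, 59.4 and 52.8 CPM in a cells, 329, 387 and 342 CPM in alpha cells and 2.74, 14.3 and 13.4 CPM in a/alpha cells. The minus-strand one had 37.3, 66.2 and 46.7 CPM in a cells, 572, 701 and 690.0 CPM in alpha cells and 6.86, 13.1 and 14.4 CPM in a/alpha cells. Both were therefore highest in alpha cells, intermediate in a cells and lowest in a/alpha cells, and since they overlap on opposite strands their separate counts are uncertain. The remaining one, on A at 631418 to 631852 (435 bp, plus strand), had 14, 13.8 and 16 CPM in a cells, 115, 131 and 135 CPM in alpha cells and 24.7, 21.1 and 20.2 CPM in a/alpha cells. The a against alpha log2 fold change was -3.13 ± 0.16 (8.74-fold; edgeR adjusted p = 7.68e-06), and the a/alpha libraries lay just above the a libraries.

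Ranks 7 to 12 had log2 fold changes from -1.98 to -1.76, with edgeR adjusted p between 0.0014 and 0.00598. The model at 474022 to 475743 on C had 25.5, 13.8 and 14.6 CPM in a cells, 68.1, 75.7 and 54.4 CPM in alpha cells and 16.5, 21.1 and 23.3 CPM in a/alpha cells. In the one at 710920 on E every a/alpha library was above every haploid library, with 5.56, 3.57 and 4.5 CPM in a cells, 14.3, 19.8 and 14.1 CPM in alpha cells and 59, 45.9 and 33.9 CPM in a/alpha cells. The model at 391467 on A had 71, 79.9 and 98.5 CPM in a cells and 255, 273 and 435 CPM in alpha cells. At 1026269 on G the levels were 167, 166 and 194 CPM in a cells and 565, 493 and 793 CPM in alpha cells. In each of these the groups were apart by less than the leading models but did not overlap. The other models, at 37558 on B and 126464 on H, averaged 2.77 and 59.7 CPM in a cells and 10.9 and 201 CPM in alpha cells. Named by p-value, 3 further models had close replicates. On H at 1304903 the levels were 17.9, 18.5 and 21.2 CPM in a cells and 49.8, 51.5 and 60.5 CPM in alpha cells, on E at 1052694 they were 44.6, 50.3 and 52.6 CPM in a cells and 133, 126 and 161 CPM in alpha cells, and on H at 68851 they were 28.9, 30.7 and 29.5 CPM in a cells and 69.7, 73.6 and 85.3 CPM in alpha cells. Their log2 fold changes lay between -1.51 and -1.37, each with an edgeR adjusted p of 0.00124. The rule for naming required groups that did not overlap, and a choice by p-value favours close replicates.

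**Figure D3:**
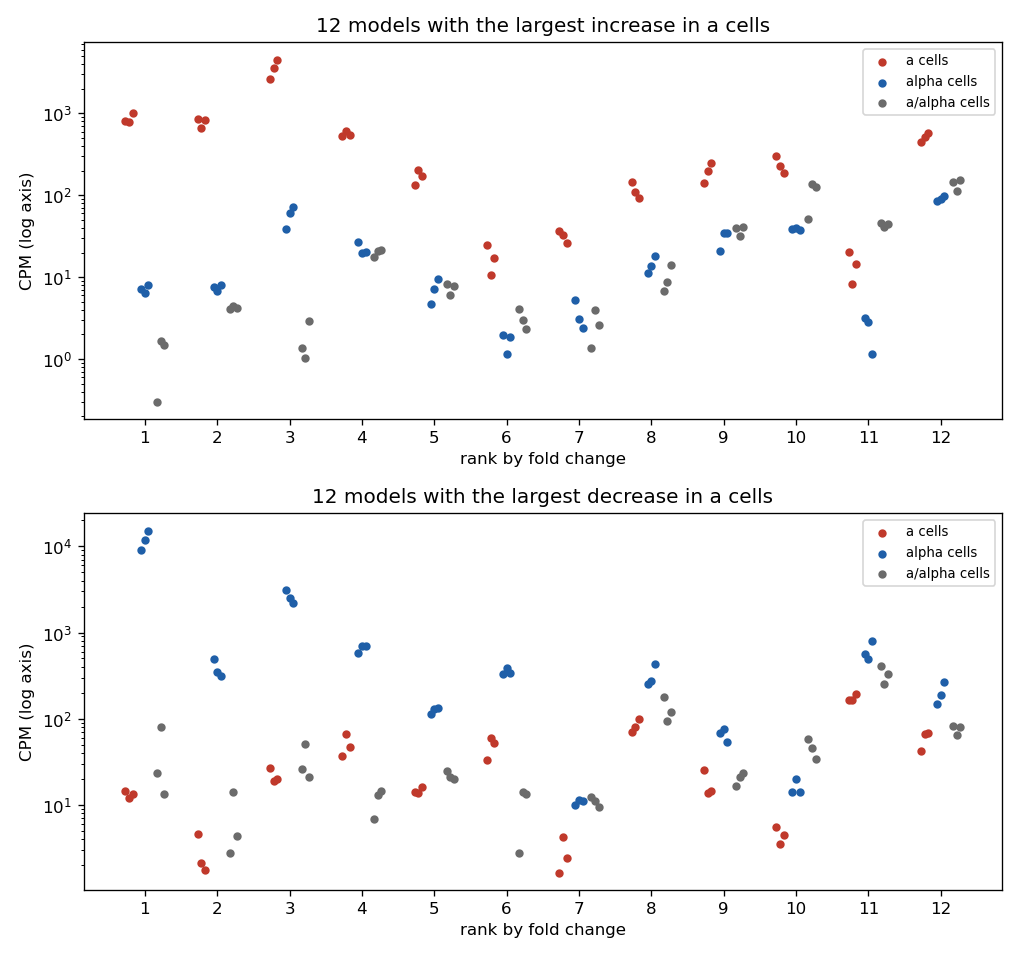
CPM (log axis) in each library for the 12 models with the largest fold change in each direction, by rank, with a cells left of alpha and a/alpha cells; a value of 0 is drawn at 0.3 CPM. In the upper panel the a libraries are at the top except at rank 11, where the a/alpha libraries are. In the lower panel the first 3 ranks are high in alpha cells only, and ranks 4 and 6 are lowest in a/alpha cells.

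No model was a strict switch by the limits set here, under 1 CPM on average in one haploid type and at least 10 CPM in the other. This count rests on levels alone and was 0 over all 5189 models, whether or not they passed the test, and it stayed 0 with RLE or upper-quartile factors, with limits of 0.5 and 5 CPM or 2 and 20 CPM, and with each haploid library left out in turn. The strongest a-raised and alpha-raised models had counts in every library of the other haploid type. Whether those reads came from transcripts of its cells was not tested.

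Most of the models named for high level on the alpha side showed a modest difference. By level per length in alpha cells, the leader at least 2-fold lower in a cells was on H at 402215 to 402877 (minus strand, coding length 315 bp). It had 4658, 6691 and 7394 CPM in a cells, 9740.1, 12745 and 17094 CPM in alpha cells and 7713, 6343 and 6948 CPM in a/alpha cells. The alpha libraries were all above the others, while a and a/alpha libraries overlapped. Its log2 fold change was -1.08 ± 0.27 (edgeR adjusted p = 0.0303), and leaving out a replicate 2 gave an adjusted p of 0.0865, while leaving out alpha replicates 2 or 3 gave 0.109 and 0.0956. Models at 471122 on G, 1141833 on C and 1209577 on D also differed by about 2-fold, with 4552 to 8234 CPM in a cells and 9319 to 20086 CPM in alpha cells. In each of these 3 the a/alpha libraries, at 7730 to 9014 CPM over the 3 models, lay between the haploid types without overlap. Their log2 fold changes were between -1.06 and -1.04 with edgeR adjusted p from 0.015 to 0.0361, and each lost its call in 3 or 4 of the 6 fits without 1 library, all of them fits without a replicate 2 or 3 or alpha replicate 2 or 3. Upper-quartile factors gave smaller log2 fold changes, -0.91 on G, -0.93 on C, -0.91 on D and -0.95 for the model on H.

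These abundant models were part of a shift over many models. The models were split by mean level per length into lists of 1674, 1673 and 1674. Among the 1674 of highest level, 64 were called higher and 198 lower in a cells (15.7% called), with a median log2 fold change of -0.23. Among the 1674 of lowest level, 112 were called higher and 38 lower (8.96% called), with a median of 0.24. The medians for all tested models were 0.044 and 12.4% called. The list medians were alike in every same-number pair, at -0.23, -0.20 and -0.23 for the highest list and 0.23, 0.24 and 0.21 for the lowest. With upper-quartile factors they were -0.10 and 0.36.

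Short models showed the same direction. Of 390 tested models with a coding length under 400 bp, 12 were called higher and 48 lower in a cells (15.4% called), with a median log2 fold change of -0.42. The median deviation of the short models from their mean over the 6 haploid libraries was -0.46, -0.16 and -0.05 in a libraries and 0.00, 0.15 and 0.48 in alpha libraries, so a replicate 3 and alpha replicate 1 were close to each other and a replicate 1 and alpha replicate 3 lay at the ends. Crossing length with level, chosen after the values were seen, gave a median of -0.56 over the 272 short models of highest level and 0.021 over the 51 short models of lowest level. The 1402 longer models of highest level had a median of -0.18. The 100 most abundant models per length, also chosen afterwards, had 3 called higher and 36 lower, a median of -0.68 and quartiles of -0.93 and -0.47. Their median deviations were -0.56, -0.36 and -0.14 in a libraries, 0.13, 0.38 and 0.58 in alpha libraries and 0.06, -0.05 and -0.01 in a/alpha libraries. The a libraries were all low and the alpha libraries all high in this list, while the spread within each type was wider than the gap between a replicate 3 and alpha replicate 1.

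The differences were spread over all 8 chromosomes. The called share ran from 7.07% on C to 15.1% on A, against 12.4% overall. The first 1 Mb of C, an arm whose GC content is known to exceed that of the other chromosomes, moved as a block in some libraries. Its 443 tested models had median deviations of 0.81, -0.19 and -0.14 in a libraries, 0.21, -0.31 and -0.37 in alpha libraries and 0.44, 0.37 and 0.29 in a/alpha libraries. Replicate 1 of each haploid type was the high one, and a replicate 1 was furthest from its type. The a minus alpha median was 0.60, 0.10 and 0.23 in pairs 1, 2 and 3. The unblocked test called 15 higher and 11 lower there (5.87%), and the fit with the replicate block 193 higher and 42 lower. The block raised calls over all tested models as well, from 12.4% to 44.4%, so the rise was not confined to the arm. A fit without this arm called 803 models over the rest of the genome, against 622 with the arm kept, 26 of them in the arm. The arm holds the named models on C at 474022, 475936 and 481147, whose differences were larger than these shifts and were called in every fit without 1 library.

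**Figure D4:**
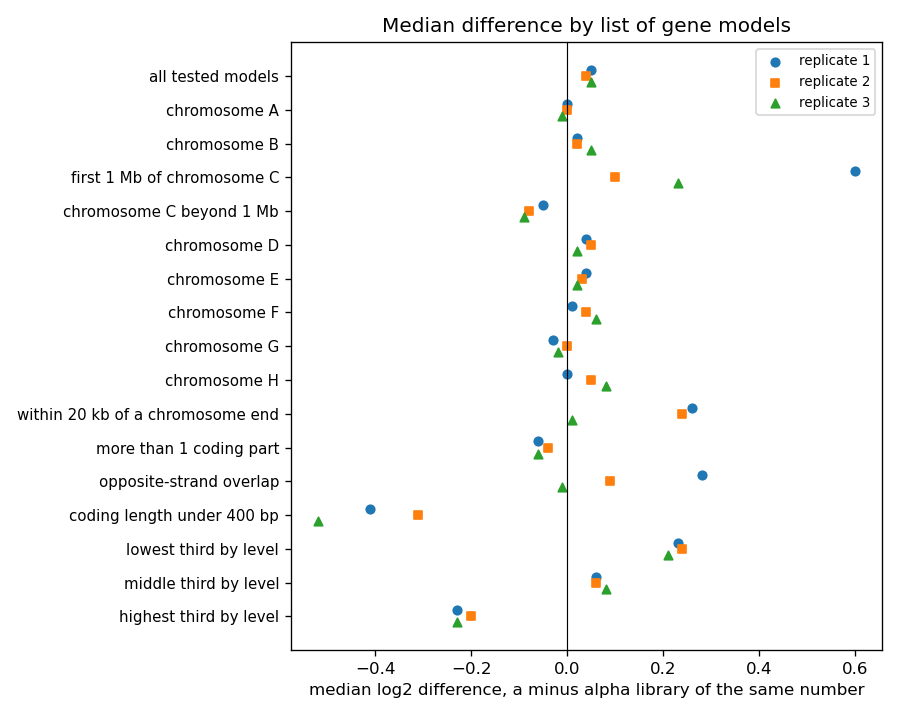
Each symbol is the median log2 difference (a minus alpha library of the same replicate number) over the tested models of 1 list. Most chromosomes sit near 0 in all 3 pairs, the first 1 Mb of C reaches 0.60 in pair 1, models under 400 bp lie between -0.52 and -0.31, and the lists by level run from 0.21 to 0.24 at the lowest level to between -0.23 and -0.20 at the highest.

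Models with more than 1 coding part, whose coding sequence is split, were called about as often as all models (78 of 675, 11.6%), with 21 higher and 57 lower in a cells and a median log2 fold change of -0.069. Within 20 kb of the outermost models of a chromosome, 6 were called higher and 4 lower of 73 tested (13.7%). Among 122 tested models that overlap another on the opposite strand, 4 were higher and 2 lower (4.92%).

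The models next to those with the largest differences were called in either direction or not at all. The 12 models most raised in a cells had 24 neighbours, of which 5 were called higher (20.8%, against 5.4% of all tested models), 2 lower and 17 not called. One of the 5 is the model at 930830 on A, which overlaps its neighbour on the opposite strand. The 12 most lowered ones also had 24 neighbours, of which 6 were called lower (25%, against 6.99% of all tested models), 2 higher and 15 not called, and 1 was not tested. Of these 6, 4 belong to the 12 themselves, since the adjacent models on C and on E count each other. No run of 3 or more adjacent models was at least 2-fold different in 1 direction by the edgeR test at the adjusted threshold. At an unadjusted p under 0.05 there were 2 such runs, DESeq2 gave 1, the fit of all 9 libraries gave 0 and the replicate block gave 2.

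Of 4903 adjacent tested pairs, both models were at least 2-fold higher in a cells in 11 and both lower in 12. In 6 pairs they moved in opposite directions. Among all tested models 2.41% were at least 2-fold higher and 2.93% at least 2-fold lower. How many pairs of each kind these shares alone would give was not worked out, so no excess is claimed. Of the 12 lowered pairs, 5 were divergent (41.7%, against 29.0% of the 4903 adjacent tested pairs), and of the 11 raised pairs 3 were divergent and 6 tandem. All 6 opposite pairs were tandem, against 41.6% of all adjacent tested pairs, with gaps of 145 to 696 bp, and in 3 of them the a-raised model was upstream. The opposite pairs on G share the model at 1050736, so the 6 are not all separate loci. Upstream of the strongly raised model at 2039397 on H, the model at 2042658 to 2043590 had 72.4, 40.9 and 44.4 CPM in a cells and 11.8, 12 and 11.3 CPM in alpha cells (log2 fold change 2.16 ± 0.24; edgeR adjusted p = 0.00124). Both read from the minus strand, and the groups did not overlap in either, as in all called models. Divergent from the raised model at 894334 on A, the model at 892899 to 893555 had 155, 231 and 272 CPM in a cells and 75.4, 109 and 93.9 CPM in alpha cells (log2 fold change 1.23 ± 0.24; edgeR adjusted p = 0.0113).

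A tandem triplet on the plus strand of G alternated in direction. Its first model is the alpha-raised one at 1048341. After a gap of 338 bp, the model at 1050736 to 1052271 had 44.9, 62.5 and 69.8 CPM in a cells, 11.2, 17.4 and 8.97 CPM in alpha cells and 48, 70 and 71 CPM in a/alpha cells. It was low only in alpha cells, where its upstream neighbour was high, with a log2 fold change of 2.23 ± 0.27 (edgeR adjusted p = 0.00175). After a further 145 bp, the model at 1052416 to 1053087 had 5.42, 8.87 and 10.6 CPM in a cells and 15.2, 17.9 and 21.8 CPM in alpha cells (log2 fold change -1.14 ± 0.27; edgeR adjusted p = 0.0277). A like inverse order held on F, where the raised model at 524553 is followed after 455 bp by one at 528556 to 529731 with 17.3, 19.7 and 19.3 CPM in a cells, 34.6, 51.5 and 42 CPM in alpha cells and 61.8, 39.5 and 42.3 CPM in a/alpha cells. That model was low only in a cells, where its upstream neighbour was high, with a log2 fold change of -1.19 ± 0.19 (edgeR adjusted p = 0.00467). Both cases were picked after their values were seen.

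A short stretch of C between 474022 and 481671 held 3 of the named models among 4 neighbours. Its first models, at 474022 (plus strand) and 475936 (minus strand), converge with a gap of 193 bp and were both lower in a cells, by log2 fold changes of -1.89 ± 0.25 and -7.12 ± 0.38. The next, at 477986 to 480695, had 98.1, 52.3 and 47.1 CPM in a cells and 90.7, 52.5 and 47.6 CPM in alpha cells (log2 fold change 0.04 ± 0.33; edgeR adjusted p = 0.953), so its libraries paired by number and not by type. It is followed by the a-raised model at 481147. Models on either side of the stretch were not called.

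The a/alpha libraries placed the haploid differences. On the log2(CPM + 0.5) scale, 47 of the 121 models at least 2-fold higher in a cells were lower in a/alpha cells than in either haploid type, 36 lay between the types and nearer alpha, 24 between and nearer a, and 14 above both. The a/alpha mean was thus nearer the alpha level, or below it, in 83 models (68.6%), and in 17 of the 22 models at least 4-fold higher (77.3%). Of the 147 lower models, 7 were lowest in a/alpha cells, 81 lay between and nearer a, 50 nearer alpha and 9 above both, so 88 (59.9%) were nearer the a level or below it. All 6 models at least 4-fold lower were among these 88. For the lower models the count rested on single a/alpha libraries, being 119 without a/alpha replicate 1, the shallow one, 61 without replicate 2 and 77 without replicate 3. For the higher models it was 75, 82 and 83. Since the models were chosen by the haploid difference, which fixes both ends of the scale, no test was made of these placements.

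**Figure D5:**
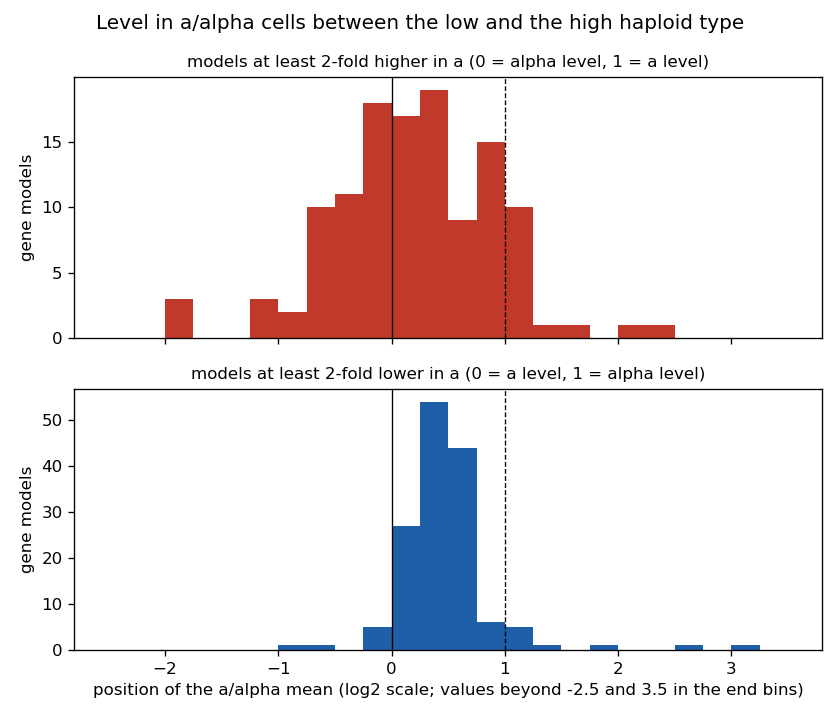
Histogram of the position of the a/alpha mean on a scale that runs from the lower haploid type (0, solid line) to the higher one (1, dashed line), in log2(CPM + 0.5), for the models at least 2-fold higher in a cells (top) and at least 2-fold lower (bottom). The median position was 0.19 for the higher and 0.46 for the lower models, and 47 of the higher models fall below 0, against 7 of the lower ones.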

How the data were processed

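The submitters' labels describe poly(A) selection, a directional library kit and single reads of 65 bp. The authors deposited raw read counts per gene model, with the summed coding length in bp. Counting was by featureCounts 2.0.1 over coding parts at strand setting 1, per the file headers, from 14 alignments whose paths name fastp and STAR. The sources used here do not give the genome build. How that setting fits the kit is not stated; the 139 models that overlap another on the opposite strand had a median of 22.3 CPM and the 5050 others 48.9 CPM.

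For the 6 haploid libraries, edgeR 4.0.16 under R 4.3.3 was used (TMM factors, filterByExpr, robust quasi-likelihood test, Benjamini-Hochberg over 5021 models at 0.05). The 168 models left out held 0.0074% of counts. The biological coefficient of variation was 19.4%, and 10.4% with the replicate number as a block. Approximate standard errors were had by dividing the log2 fold change by the square root of F. CPM values use TMM factors over all 9 libraries. The replicate correlations for numbers 1, 2 and 3 were 0.718, 0.14 and 0.514 without the first 1 Mb of chromosome C, and a replicate 2 correlated best with alpha replicate 3 (0.488).

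Models given with values were called, with groups not overlapping. They were the 12 largest fold changes each way, the 5 of highest level per length at least 2-fold different each way, the next 3 by p each way, and any strict switch or run. Other models are neighbours of these, or are said to be picked after their values were seen. The comparison, rule and lists were chosen with earlier results of these data known. Alternatives were other size factors and filters, DESeq2 1.42.0, all 9 libraries, the block, leaving out the first 1 Mb of chromosome C or opposite-strand overlaps, a threshold of 0.01 and leaving out each library. The code was checked on simulated counts that lack the replicate-number and chromosome C shifts of the data, so those were not covered. It recovered 77% of 2-fold and 100% of 4-fold changes, with 13 false calls among those of the 5021 simulated models that were given no change. The authors' 2 tables of comparisons with a/alpha cells were not used.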

Additional observations from a re-analysis of the deposited data

How the results depend on the processing

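No model called in the unblocked edgeR fit changed direction in any alternative. Counts past the threshold moved by over 1.5 times in these cases. DESeq2 called 982 models, 586 of them lower in a cells. The replicate block, in which same-number libraries are paired, called 2228, with 1125 higher and 1103 lower, and it ended none of the 622 calls. Upper-quartile factors gave 465 higher, with 190 at least 2-fold higher and 94 at least 2-fold lower. At an adjusted p of 0.01 there were 211 calls, 86 higher and 125 lower, with 73 at least 2-fold higher. Leaving out 1 library gave 241 to 789 calls, 95 to 317 of them higher and 134 to 472 lower. Such fits leave 1 type with 2 libraries. The models at least 2-fold different moved by less than 1.5 times in them, with 82 to 158 higher and 102 to 217 lower. Of the 36 models named by rule, 31 kept their call in all 6 of these fits, and all 36 kept it with the block. Over 465 pairs of a named model and an alternative, 449 kept direction and call, 16 lost the call and 0 reversed. All 16 losses came without a replicate 2 or 3 or alpha replicate 2 or 3. The cause of these moves was not tested. Depth limits the scarcest models, since 3 counts are 0.337 to 0.47 CPM in a haploid library.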
